A study of Mus musculus with 2 samples.

Results

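Short cis pairs are read pairs of a Hi-C library whose ends lie on the same chromosome and close together. The pairs described here had both ends on chromosome 1 between 3 and 90.75 Mb of assembly GRCm38 and lay under 20 kb apart. There were 400893 of them in the library from wild-type ES cells, embryonic stem cells of the mouse, and 282493 in the library of *Lin28a* knockout ES cells, out of 5767991 and 4412861 pairs whose first end lay in that stretch and out of 2849642 and 2256233 cis pairs with both ends in it. Both cell groups were grown with mouse embryonic fibroblast feeder cells on gelatin in LIF and 2i medium, cross-linked with formaldehyde and sheared. The labels name no strain, no clone and no allele of the knockout, and they speak of replicates, but each group was given as 1 pair list. With 1 library per group the groups were not tested against each other. Every interval given is a 95% interval for counting error alone, and pairs amplified by PCR are not independent molecules. The lists analysed here were partial, which set the upper limit of 90.75 Mb. *Lin28a* lies on chromosome 4, so no member of the set covers the targeted gene and these pairs hold no check of the knockout label. DNA of the feeder cells cannot be told apart from that of the ES cells, which both belong to the mouse.

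In Hi-C, cross-linked chromatin is cut by a restriction enzyme, the cut ends are labelled and joined, and each joined molecule is read from both sides. A true junction may join its ends in any direction, so over a large number of junctions inward (the left read on the plus strand and the right read on the minus strand), outward (minus then plus) and same-strand pairs tend to a ratio of 1 to 1 to 2. A single piece of DNA that was never cut and joined gives only inward pairs, at the length of the sheared piece, and a fragment closed on itself gives outward pairs. At a few kb, Hi-C reports on the local folding of the chromatin fibre, in gene bodies, at gene starts and over gene-free sequence, and it is also where pairs that are not junctions collect.

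The fragment numbers of the lists count pieces between neighbouring GATC sites. The number of an end equalled the number of GATC sites before it plus 1 for 92.2% of ends for wild-type and 93.9% for the knockout, and lay within 1 of it for 99.6% and 99.7%. With CATG in place of GATC 0.00277% and 0.00319% of ends came within 1. The held stretch had 219139 GATC sites at a median spacing of 260.0 bp, and 64.3% of the fragments were under 400 bp. The 3 fragments that were spanned by the most inward pairs under 600 bp are shown because they display the geometry of the fragment class with the lowest ratio of knockout to wild-type: a small fragment between close sites, with the read ends on the fragments to either side. The sequences are the plus strand of GRCm38, the sites are in capitals, and 20 bases stand before the first and after the second site.
Fragment 127613: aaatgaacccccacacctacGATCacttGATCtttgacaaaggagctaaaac
Fragment 155757: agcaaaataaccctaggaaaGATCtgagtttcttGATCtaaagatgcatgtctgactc
Fragment 11898: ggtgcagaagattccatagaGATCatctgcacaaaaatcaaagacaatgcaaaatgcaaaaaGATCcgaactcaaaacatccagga
The first of these ran over chr1:53240851-53240902 inside the body of *Pms1*, a mismatch repair gene, with sites 8 bp apart. It was spanned by 12 pairs for wild-type and 2 for the knockout. The second ran over chr1:65021794-65021851 in the body of *Akr1cl*, with sites 14 bp apart and 9 and 4 spanning pairs. The third ran over chr1:7363642-7363727 outside any protein-coding gene, with sites 42 bp apart and 7 and 5 spanning pairs. None of the 3 overlapped an annotated exon. These were the extremes, and most such fragments were seen once.

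Short pairs made up less of the knockout library. They were 14.07% (14.03% to 14.11%) of cis pairs for wild-type and 12.52% (12.48% to 12.56%) for the knockout, a difference of -1.55 percentage points (-1.61 to -1.49). By read name each library came from 2 sequencing lanes, those of wild-type on 1 flow cell and those of the knockout on different instruments. The larger and the smaller lane gave 14.07% and 14.08% for wild-type, and 12.52% and 12.49% for the knockout. The share depends on what it is taken over. Over cis pairs under 1 Mb it was 24.0% and 22.0%, with a difference of -2.10 points (-2.19 to -2.0003). Of the difference of -1.55 points over all cis pairs, pairs under 1 kb carried the larger part. They were 2.73% of cis pairs for wild-type and 1.91% for the knockout, a difference of -0.826 points (-0.852 to -0.8003). Pairs of 1 to 20 kb were taken over the cis pairs of 1 kb or more. They made up 11.7% for wild-type and 10.8% for the knockout, a difference of -0.833 points (-0.889 to -0.778). The differences of these classes have unlike denominators and do not add up. Cis pairs of 20 to 100 kb were the nearest class for comparison, with a scaled ratio of knockout to wild-type of 0.978 (0.973 to 0.983), and at 100 kb to 1 Mb the ratio was 1.01 (1.008 to 1.015).

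The strands of the short pairs were uneven in both libraries. In the wild-type library 36.3% (36.2% to 36.5%) were inward, 20.8% outward and 42.8% same-strand. In the knockout library 33.2% (33.1% to 33.4%) were inward, 22.0% outward and 44.8% same-strand. The inward share was thus lower by 3.11 points for the knockout (difference -3.11, interval -3.34 to -2.88). In the larger and the smaller lane the inward share was 36.3% and 36.9% for wild-type and 33.3% and 32.5% for the knockout, so the lanes of a library lay closer to each other than to those of the other library.

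The excess of inward pairs sat at the shortest distances. Between 200 and 500 bp, 94.5% of 60955 pairs were inward for wild-type and 92.6% of 27373 for the knockout. From 1 to 2 kb the inward share was 26.9% in both libraries, and the outward share 22.7% and 23.01%. From 2 to 20 kb the classes stood close to the ratio of junctions, with 25.1% inward and 25.02% outward for wild-type and 24.9% inward and 25.1% outward for the knockout. At 20 to 100 kb, outside the set, both libraries had 24.99% inward. Of the same-strand pairs at 2 to 20 kb, plus-plus pairs were 24.8% and 24.9% of all pairs and minus-minus pairs 25.1% and 25.1%.

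**Figure D1:**
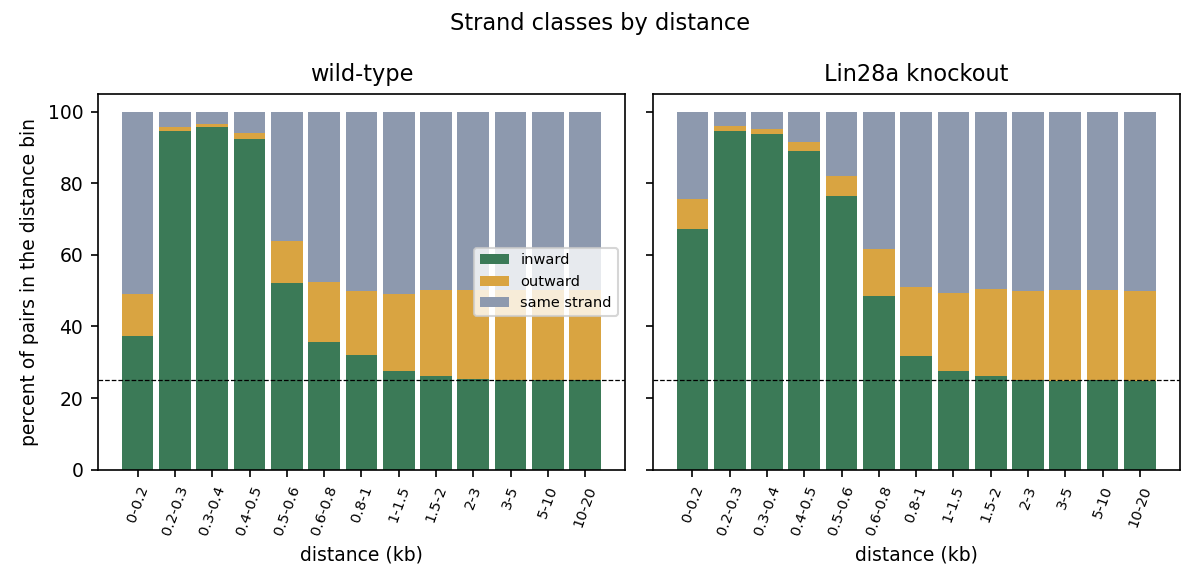
Stacked bars give the percent of pairs that were inward, outward or same-strand in each distance bin (kb), wild-type on the left and *Lin28a* knockout on the right, 1 library each; the dashed line marks 25%. Inward pairs fill 94.5% of the wild-type pairs and 92.6% of the knockout pairs between 0.2 and 0.5 kb, and from 2 kb on all bins lie near 25% inward, 25% outward and 50% same-strand.

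The libraries parted in where the inward pairs ended. At 300 to 400 bp there were 27235 pairs for wild-type and 11216 for the knockout, and the ratio of inward pairs scaled to cis pairs was 0.509 (0.497 to 0.520). At 500 to 600 bp there were 3606 and 5071 pairs, 52.2% and 76.5% of them inward, and the scaled inward ratio was 2.60 (2.46 to 2.75). At 600 to 800 bp it was 1.501 (1.42 to 1.59). Below 200 bp it was 2.01 (1.76 to 2.305), on 945 and 839 pairs of all strands. From 800 bp on, the ratio of inward pairs lay between 0.887 and 0.941 in every bin. The median length of inward pairs under 1 kb was 367 bp for wild-type (5th to 95th percentile 237 to 691) and 385 bp for the knockout (227 to 768). The summed distance of both ends to their sites moved along with this: over cis pairs of 20 kb or more its median was 271 bp (171 to 425) for wild-type and 303 bp (140 to 514) for the knockout, a wider spread on both sides. The part of this library property in the strand and distance shares was not tested.

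The outward and same-strand pairs followed a simpler course. Their scaled ratio of knockout to wild-type rose with distance, from 0.588 (0.507 to 0.679) below 200 bp through 0.873 (0.810 to 0.941) at 500 to 600 bp and 0.905 (0.880 to 0.931) at 1 to 1.5 kb to 0.958 (0.949 to 0.968) at 10 to 20 kb. Every distance bin lay under 1 in these classes. All strands together gave 0.936 (0.931 to 0.941) at 1 to 20 kb.

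**Figure D2:**
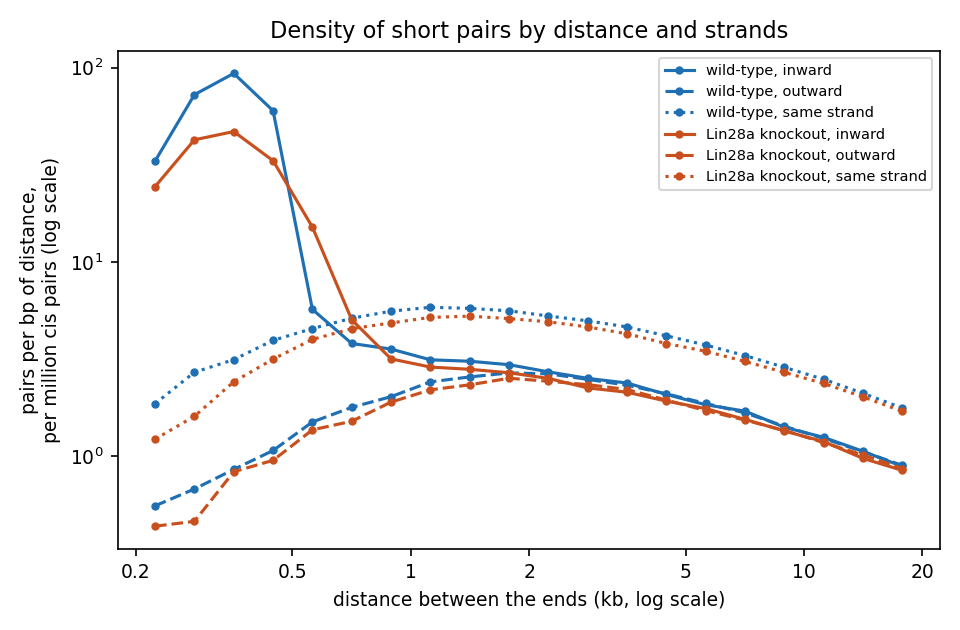
Pairs per bp of distance and per 1000000 cis pairs (log scale) against the distance between the ends (kb, log scale), by strand class and library, 1 library each. Inward pairs peak between 0.3 and 0.4 kb in both libraries, higher for wild-type, while the outward and same-strand curves rise to between 1 and 2 kb and then fall together.

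The density of pairs fell slowly with distance inside 20 kb. It went from 11.4 pairs per bp of distance and per 1000000 cis pairs at 1 to 1.5 kb to 4.14 at 10 to 20 kb for wild-type, and from 10.3 to 3.95 for the knockout. A line through log-spaced bins had a slope of -0.224 (log10 density per log10 distance) at 1 to 5 kb and -0.647 at 5 to 20 kb for wild-type, and of -0.216 and -0.619 for the knockout. The decay was thus a little flatter for the knockout in both ranges, as a description of these 2 libraries. Of the short pairs, 52.5% were 5 to 20 kb apart for wild-type and 55.8% for the knockout, a difference of 3.27 points (3.03 to 3.51). Without pairs under 1 kb the difference was 0.628 points (0.376 to 0.879).

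The difference of fragment number sorts short pairs by how many sites lie between their ends. No pair in either list had both ends on 1 fragment or on neighbouring fragments. A filter on pair type before deposition would give the same count of 0, and such filters are not given in the sources used here. The count thus cannot tell how often such pairs arose in the libraries. The planned share of neighbouring fragments was 0 in both lists, and the smallest difference that was present, 2, was used after this was seen. Pairs with a difference of 2 were 16.2% (16.1% to 16.3%) of the short pairs for wild-type and 12.7% (12.5% to 12.8%) for the knockout, a difference of -3.57 points (-3.74 to -3.40). They had a median length of 376 and 404 bp, and 80.7% and 75.3% of them were inward.

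Within the pairs of difference 2 the strands turned over with distance. Under 600 bp, 93.2% of 54482 wild-type pairs and 91.7% of 27278 knockout pairs were inward. At 1 to 1.5 kb, 12.7% and 12.8% were inward and 33.3% and 34.1% outward. At 3 to 5 kb, 2.46% and 3.66% were inward and 61.6% and 61.6% outward, on 203 and 164 pairs. Inward pairs thus led at the short end and outward pairs at the long end, in both libraries. The summed distance of both ends to their sites was at most 600 bp in the lists. An inward pair of difference 2 can thus be little longer than the middle fragment plus 600 bp, a limit that outward pairs do not have. The part of this limit and of the fragment lengths in the order of the strands was not tested. Nothing is read from this order about kinds of pairs. At 3 to 5 fragments 37.7% and 35.1% were inward and 20.4% and 21.5% outward. At 6 to 10 fragments the strands were closer to even, as 26.1% and 25.9% were inward and 24.2% and 24.6% outward.

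The scaled ratio of knockout to wild-type rose along the fragment classes. It was 0.694 (0.685 to 0.703) at a difference of 2, 0.881 (0.869 to 0.893) at 3 to 5, 0.917 (0.905 to 0.929) at 6 to 10, 0.932 (0.922 to 0.942) at 11 to 20, 0.945 (0.936 to 0.954) at 21 to 40 and 0.948 (0.934 to 0.963) over 40. The intervals of the last 2 classes overlap, and those of the first 3 do not. The inward pairs under 600 bp with a difference of 2 were 12.7% of the short pairs for wild-type and 8.85% for the knockout. They were spread over 27315 and 17834 middle fragments, of which 14293 and 12575 were spanned once, and no fragment was spanned more than 12 and 7 times.

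**Figure D3:**
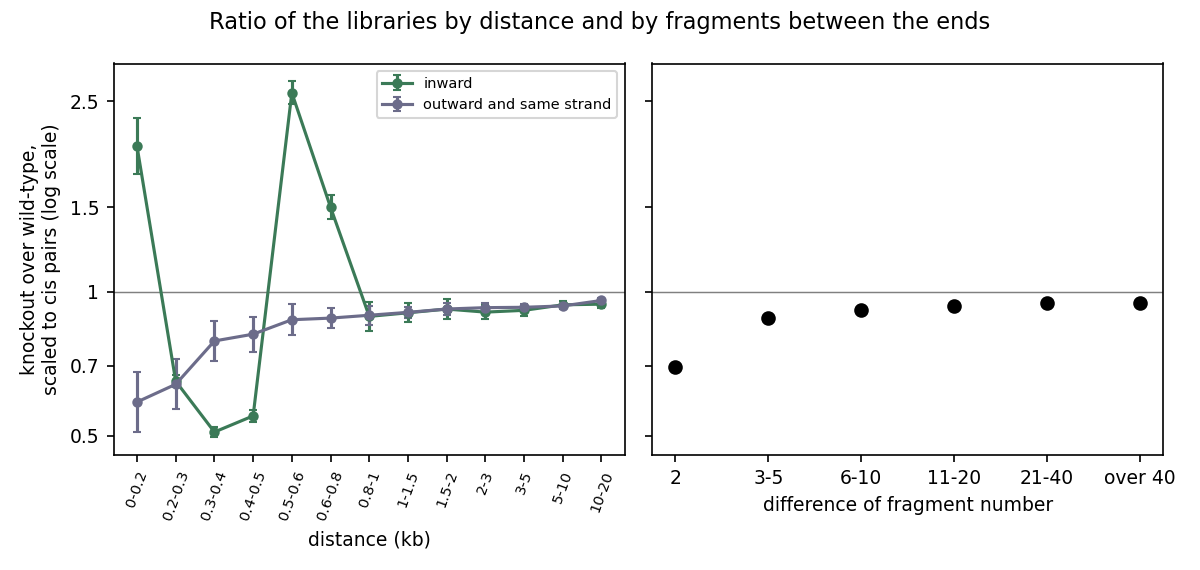
Ratio of knockout to wild-type pairs, scaled to all cis pairs (log scale), by distance in kb (left, inward against the other strand classes) and by difference of fragment number (right); bars are 95% counting intervals, 1 library per group. The inward ratio swings from 0.509 at 0.3 to 0.4 kb to 2.60 at 0.5 to 0.6 kb, while the other classes stay under 1 and rise to 0.958, and the fragment classes rise from 0.694 to 0.948.

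The stretch held 512 protein-coding genes of GENCODE M21. Gene bodies covered 41.4% of its bases and 39.8% of its GATC sites, and they received 43.5% and 43.7% of all pair ends in the wild-type and the knockout library. Midpoints of short pairs lay in gene bodies for 43.48% (43.33% to 43.64%) of wild-type and 43.89% (43.71% to 44.08%) of knockout pairs, a difference of 0.412 points (0.174 to 0.651). That is 1.0002 and 1.005 times the share of the ends. By distance the share went from 41.3% and 41.6% under 600 bp to 44.1% and 44.5% at 10 to 20 kb. When both ends had to lie in the body of 1 gene, the difference was 0.101 points (-0.135 to 0.337), so it was not detectable under that choice.

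Windows of 5 kb to either side of gene starts covered 5.19% of bases and 4.94% of sites and received 6.11% and 6.18% of ends. They held 5.82% (5.75% to 5.90%) of wild-type and 5.84% (5.75% to 5.93%) of knockout short pairs, 0.953 and 0.945 times the share of ends, and the difference of 0.0171 points (-0.0956 to 0.130) had an interval that held 0. It depended on the setting, with 0.0738 (0.00106 to 0.147) in windows of 2 kb and 0.511 (0.0258 to 1.02) in the smaller lanes, but -0.0118 (-0.128 to 0.105) in the larger lanes. By distance the share was highest at 2 to 5 kb, with 6.10% and 6.20%, and it was 5.73% and 5.79% at 5 to 10 kb. At 20 to 100 kb it was 6.09% and 6.07%, 0.995 and 0.981 times the ends. Short pairs around all gene starts together were thus fewer than the ends there, in both libraries. At 2 to 5 kb they were not, at 0.998 and 1.003 times the ends, and against the share of GATC sites short pairs stood at 1.18 and 1.18. Starts rich in CpG, as defined below with the spanning pairs, stood at 0.915 and 0.908 times the ends. The other starts stood at 0.989 and 0.983. Against the share of GATC sites CpG-rich starts stood at 1.19 and 1.22 and the other starts at 1.18 and 1.16. The order thus depended on what the pairs were set against.

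Bins of 100 kb without any protein-coding gene numbered 335 of 878. They covered 38.1% of bases and 39.3% of sites but received 34.6% and 34.5% of ends. They held 34.8% (34.6% to 34.9%) of wild-type and 34.6% (34.4% to 34.7%) of knockout short pairs, with a difference of -0.201 points (-0.430 to 0.0284). In bins of 50 kb the difference was -0.325 (-0.562 to -0.0877), and in the smaller lanes -1.35 (-2.33 to -0.370). Under 600 bp the shares were 37.0% and 36.8%, 1.07 times those of the ends in both libraries. From 1 to 20 kb they were 34.3% and 34.2%, and at 20 to 100 kb 33.5% and 33.7%. Against the share of GATC sites, the pairs under 600 bp stood at 0.939 and 0.935 in gene-free bins and at 1.04 and 1.04 in gene bodies, so the side on which they lay depended on what they were set against.

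Where a piece of a given length can span exactly 2 sites is set by the sequence, so the inward pairs under 600 bp with a difference of 2 were set against the number of such placements, weighted by the lengths of each library's own inward pairs. Gene-free bins held 38.8% and 38.7% of the placements and 36.8% and 36.7% of the pairs, a ratio of 0.949 (0.938 to 0.960) for wild-type and 0.948 (0.933 to 0.964) for the knockout. Gene bodies stood at 1.03 (1.02 to 1.04) and 1.04 (1.02 to 1.05). Gene starts held 5.56% of the wild-type pairs and 5.09% of the knockout pairs, a difference of -0.466 points (-0.8 to -0.125), and stood at 1.09 (1.05 to 1.13) and 0.997 (0.944 to 1.05) times the placements. Of the 3 kinds of region this was the only one whose difference had an interval without 0, on 2824 and 1274 pairs. In gene-free bins these inward pairs of difference 2 thus lay below the share of placements. They still lay above the 34.6% and 34.5% of all ends received there. Placements take no account of how many ends a region received.

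**Figure D4:**
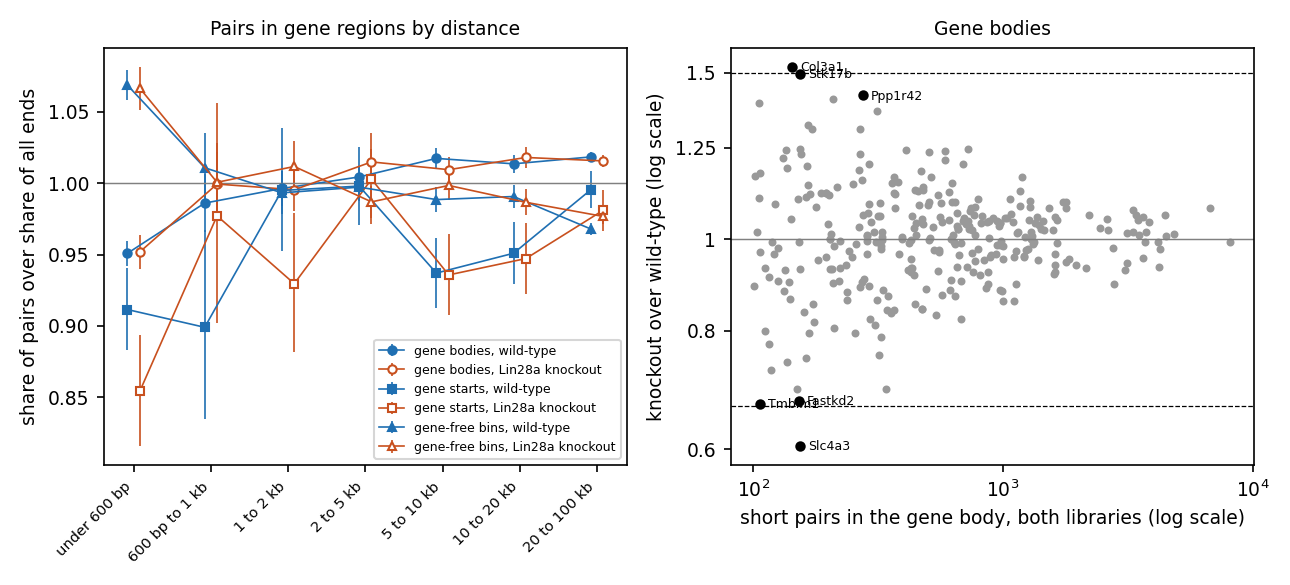
Left: share of pairs with the midpoint in gene bodies, near gene starts or in gene-free bins, over the share of all ends there, by distance, with 95% counting intervals. Right: scaled ratio of knockout to wild-type short pairs in 315 gene bodies (log scale) against their number of short pairs (log scale), with dashed lines at 1.5-fold. Gene-free bins start at 1.07 under 600 bp in both libraries and are at 0.991 and 0.987 at 10 to 20 kb, and the ratios of gene bodies lie between 0.604 and 1.52, more closely where a gene holds more pairs.

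The short share rose from gene-free bins to bins with several gene starts. Over cis pairs under 1 Mb the short share was 23.6% in gene-free bins, 23.9% in bins with a gene but no gene start, 24.4% in bins with 1 or 2 gene starts and 25.3% in the 49 bins with 3 or more for wild-type. In the knockout library the same bins had 21.5%, 21.9%, 22.3% and 23.05%. At 1 to 20 kb alone, over pairs of 1 kb to 1 Mb, the share went from 19.7% (19.6% to 19.8%) to 21.7% (21.5% to 21.9%) for wild-type and from 18.7% (18.6% to 18.8%) to 20.5% (20.2% to 20.8%) for the knockout. Pairs under 1 kb ran the other way within the short pairs, from 20.5% to 18.1% and from 16.0% to 13.9%. The order of the 4 kinds of bin was the same in both libraries.

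Over the 86 whole bins of 1 Mb the short share of cis pairs under 1 Mb ran from 21.3% to 38.5% with a median of 23.9% for wild-type, and from 18.9% to 34.2% with a median of 21.9% for the knockout. It was lower for the knockout in 86 of 86 bins, and the bin values of the libraries, which share sequence and mapping, correlated with a Pearson r of 0.962 and a Spearman rho of 0.903. For pairs of 1 to 20 kb it was lower in 81 of 86 bins. The 3 lowest bins over both libraries were those at 61 to 62 Mb, which holds the start of the polarity gene *Pard3b* (21.3% and 18.9%), at 3 to 4 Mb with *Xkr4* (21.3% and 20.1%), and at 11 to 12 Mb with *A830018L16Rik* (22.1% and 19.4%). Each of them holds a single gene start, and so does the highest bin, that of *Rims1*. Over the 86 bins the short share and the number of gene starts had a Pearson r of 0.0734 for wild-type and 0.109 for the knockout, and a Spearman rho of 0.227 and 0.251, as a description of bins that share libraries and depth. The 3 highest were at 22 to 23 Mb with *Rims1* (38.5% and 34.2%), at 65 to 66 Mb with 12 gene starts, among them the lens crystallins *Cryga* to *Cryge* and *Idh1* (29.7% and 27.9%), and at 60 to 61 Mb with 10, among them *Abi2*, *Cd28*, *Ctla4* and *Icos* (29.2% and 26.2%). The last bin holds part of the stretch from 60.71 to 61.11 Mb over *Cd28*, *Ctla4* and *Icos*, which held few ends as a whole. In that stretch 191 and 121 short pairs were counted, beside 4237 and 3042 in the bin, so these genes gave few of its pairs. The bin of *Rims1* holds few ends: from 22.16 to 22.88 Mb the 72 windows of 10 kb held 165 and 146 ends in all, far below other windows. The bin at 65 to 66 Mb held 12329 and 9465 cis pairs under 1 Mb, beside 21812 and 16907 in the bin before it. The bin after it held 7902 and 6048. Pairs were placed by their left end, and the part of these lower counts in the short share was not tested.

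Gene starts differed in how many short pairs they drew per site. Over 511 starts with at least 10 sites within 5 kb the median was 3.79 short pairs per site over both libraries (5th to 95th percentile 1.61 to 5.69). The most were at *Mroh2a*, with 122 wild-type and 87 knockout pairs on 24 sites (8.71 per site), *Idh1*, the gene of a cytosolic isocitrate dehydrogenase, with 55 and 37 on 14 sites (6.57), and *Prkag3*, a regulatory subunit of AMP-activated kinase, with 101 and 62 on 25 sites (6.52). The ratio of the libraries was 1.01 (0.760 to 1.34), 0.955 (0.612 to 1.47) and 0.871 (0.624 to 1.21), so none of the 3 differed beyond counting error. The 150 bases before each start are shown as the sequence next to the starts with the highest values. The median per site was 3.79 at CpG-rich and 3.78 at other starts, by the division given with the spanning pairs. They are written 5′ to 3′ in the direction of the gene, with GATC in capitals, from GRCm38.
Mroh2a: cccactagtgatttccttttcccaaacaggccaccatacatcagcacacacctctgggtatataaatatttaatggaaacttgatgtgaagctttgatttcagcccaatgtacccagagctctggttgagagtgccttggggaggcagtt
Idh1: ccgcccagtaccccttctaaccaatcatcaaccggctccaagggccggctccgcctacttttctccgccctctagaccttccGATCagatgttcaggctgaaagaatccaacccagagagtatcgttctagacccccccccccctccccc
Prkag3: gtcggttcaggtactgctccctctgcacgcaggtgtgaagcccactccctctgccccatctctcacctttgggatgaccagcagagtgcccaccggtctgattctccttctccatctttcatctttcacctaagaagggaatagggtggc
The windows lie at chr1:88226836-88226985 (plus strand), chr1:65186501-65186650 (minus strand) and chr1:74749222-74749371 (minus strand). *Mroh2a* had 0 GATC and 0 CG, *Idh1* 1 GATC and 7 CG, and *Prkag3* 0 GATC and 3 CG. Of all 512 starts 27.0% held a GATC in this window. The motif reads the same on both strands, and its absence says only that these letters are not in the window.

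The fewest short pairs per site were at *Rims1*, a gene of the presynaptic zone, with 0 and 0 pairs on 13 sites, at *Cd28*, a co-stimulatory receptor of T cells, with 1 and 2 pairs on 30 sites, and at *Icos*, another such receptor, with 2 and 1 pairs on 26 sites. All 3 lie in stretches of few ends in both libraries. The window of *Rims1* held 0 ends, and those of *Cd28* and *Icos* held 168 and 289 wild-type and 142 and 169 knockout ends, where *Idh1* held 1059 and 815. At *Cd28* and *Icos* short pairs were also fewer per end than at *Idh1*, in both libraries. The part of the few ends in these low counts was not tested. From 60.71 to 61.11 Mb, over *Cd28*, *Ctla4* and *Icos*, 40 windows of 10 kb held 10601 and 8382 ends in all and 191 and 121 short pairs. The median over all windows was 1000 and 778 ends per window. The counts of the stretch are sums and do not describe each gene or window in it. Why these stretches hold few ends was not tested.

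Pairs that span a gene start were fewer than pairs that span other positions. At 2 to 20 kb the 512 starts were spanned 17434 times for wild-type, 0.942 (0.927 to 0.957) times the mean of positions 50 to 100 kb to either side, and 13393 times for the knockout, 0.967 (0.9495 to 0.985) times the flanks. In the larger and the smaller lane the values were 0.941 and 0.956 for wild-type and 0.965 and 0.998 for the knockout, the last on 618 spans. Knockout over wild-type gave 1.03 (1.002 to 1.05), and 1.04 (0.945 to 1.15) in the smaller lanes. The interval over both lanes just left out 1, and for pairs of 5 to 20 kb it was 1.03 (0.9997 to 1.05). The intervals take the flanks as fixed and count each pair once.

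The deficit was found at gene starts rich in CpG. CpG-rich promoters are the common type of broadly used genes, and they are often kept free of DNA methylation. A start was called CpG-rich where the window of 500 bases to either side had at least 50% G and C and an observed over expected CpG ratio of at least 0.6, a division made after the first values were seen and from sequence alone. The 248 CpG-rich starts stood at 0.886 (0.865 to 0.907) for wild-type and 0.913 (0.889 to 0.937) for the knockout. The 264 other starts stood at 0.997 (0.976 to 1.02) and 1.02 (0.996 to 1.05). CpG-rich over other starts gave 0.889 (0.861 to 0.917) and 0.894 (0.863 to 0.927), so the split was present in both libraries. By lane it was 0.885 and 0.995 in the larger and 0.897 and 1.01 in the smaller wild-type lane, and 0.915 and 1.02 in the larger and 0.871 and 1.12 in the smaller knockout lane. Sites and ends moved too: within 1 kb of CpG-rich starts ends stood at 1.04 and 1.11 times the flanks, and GATC sites at 0.929. For the other starts the values were 1.03 and 1.05 for ends and 0.943 for sites. Within 5 kb, GATC sites stood at 0.948 times the flanks for CpG-rich starts and at 0.995 for the other starts. Ends within 5 kb stood at 1.02 and 1.05 for CpG-rich starts and at 1.03 and 1.03 for the others. The part of sites and ends in the spanning counts was not tested.

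The loss of spanning pairs was narrow. At CpG-rich starts the wild-type profile stood at 0.960 at 4 kb upstream, 0.886 at the start, 0.944 at 4 kb downstream and 1.01 at 10 kb downstream. The knockout profile stood at 0.9496, 0.913, 0.968 and 1.01 at the same places. Gene ends stood at 1.05 (1.03 to 1.06) and 1.05 (1.03 to 1.07) in the same order. Their profile was also above 1 at 40 kb upstream (1.03 and 1.02) and at 40 kb downstream (1.03 and 1.06). Values above 1 were thus not confined to the gene end. For the 216 genes over 40 kb, whose starts and ends lie out of reach of 1 short pair, starts stood at 0.860 and 0.902 and ends at 1.04 and 1.04, and start over end was 0.827 (0.7996 to 0.856) and 0.867 (0.834 to 0.901).

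**Figure D5:**
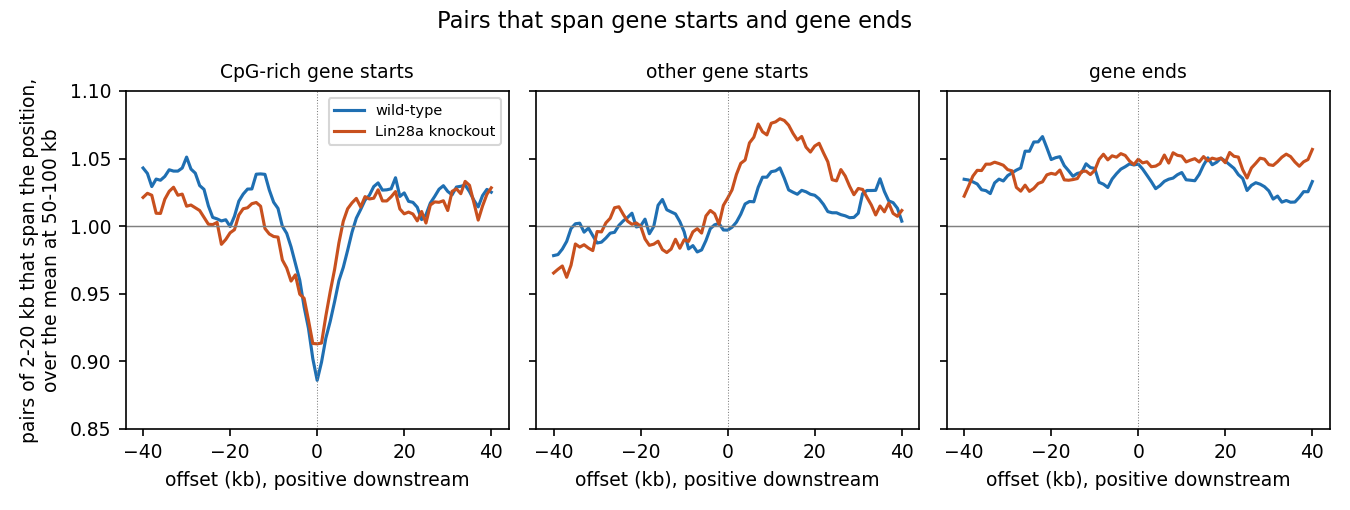
Pairs of 2 to 20 kb that span each position, over the mean at 50 to 100 kb to either side, against the offset in kb from 248 CpG-rich gene starts, 264 other gene starts and 512 gene ends (positive is downstream), 1 library per line; the y axis does not start at 0. Both libraries dip at CpG-rich starts, to 0.886 and 0.913, the other starts are at 0.997 and 1.02 at the start and at 1.04 and 1.08 at 10 kb downstream, and gene ends are at 1.05 and 1.05.

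The fixed gene lists were small at this level. Starts of the 20 growth genes used by all cells stood at 0.841 (0.777 to 0.909) for wild-type and 0.980 (0.903 to 1.06) for the knockout, a ratio of 1.17 (1.04 to 1.31). The 12 neuronal starts stood at 0.795 (0.709 to 0.890) and 0.976 (0.864 to 1.102), a ratio of 1.23 (1.04 to 1.45). The 12 developmental regulators stood at 0.862 and 0.922, a ratio of 1.07 (0.922 to 1.24), and the 10 matrix and fibroblast genes at 1.02 and 1.04, a ratio of 1.01 (0.856 to 1.20). The 16 immune starts stood at 1.18 (1.08 to 1.28) and 1.03 (0.919 to 1.15), a ratio of 0.872 (0.758 to 1.004). These rest on between 235 and 629 distinct pairs per list and library, beside the 1.03 of all starts, and no values by lane are given for the lists. GATC sites within 5 kb of the starts stood at 0.980 times the flanks for growth and 0.844 for neuronal genes. They stood at 0.901 for developmental, 0.887 for matrix and 1.09 for immune genes. The neuronal list holds *Rims1*, whose window held 0 ends. The part of sites and ends in the list values was not tested.

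Gene bodies were compared by the pairs with both ends inside, scaled to all short pairs. Of the 512 genes 315 held at least 100 short pairs over both libraries and 197 held fewer. The ratio of knockout to wild-type had a median of 1.01 and a 5th to 95th percentile range of 0.816 to 1.23. Over 1.5-fold higher for the knockout was 1 gene (0.317% of those compared), and over 1.5-fold lower 1 gene (0.317%). Of the 315 genes 168 had a ratio above 1 and 147 below. The counting interval lay wholly above 1 for 15 genes (4.76%) and wholly below 1 for 13 (4.13%).

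The gene past 1.5-fold on the high side was *Col3a1*, a fibrillar collagen chain made by fibroblasts, with 69 wild-type and 74 knockout pairs and a ratio of 1.52 (1.08 to 2.14). Next came *Stk17b*, a serine and threonine kinase, with 75 and 79 pairs (1.49, 1.08 to 2.08), and *Ppp1r42*, with 137 and 137 (1.42, 1.11 to 1.81). On the low side *Slc4a3*, an anion exchanger, had 108 and 46 pairs (0.604, 0.418 to 0.861), *Tmbim1* 72 and 34 (0.670, 0.432 to 1.02), and *Fastkd2*, a mitochondrial RNA-binding protein, 103 and 49 (0.675, 0.470 to 0.958). At 1 to 20 kb *Slc4a3* had 70 and 36 pairs and a ratio of 0.694 (0.451 to 1.05), while *Col3a1* had 52 and 61 and a ratio of 1.58 (1.08 to 2.34). With RefSeq gene models 2 of 316 genes passed 1.5-fold, both on the high side, so no gene passed it on the low side. With at least 200 short pairs required, 0 of 260 genes passed 1.5-fold.

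Of the 20 growth genes 9 held 100 pairs, and 8 of the 9 had a ratio above 1, beside 168 of 315 over all genes compared, with a median of 1.04 against 1.01 for all genes and 0 intervals without 1. *Psmd1*, a proteasome subunit, had 560 and 411 pairs (1.04, 0.915 to 1.19), and *Xrcc5*, the Ku80 repair protein, 499 and 367 (1.04, 0.910 to 1.20). These 9 growth genes had a median of 14.2 wild-type and 15.2 knockout pairs per kb of gene body and 1000000 short pairs, against 11.7 and 11.8 for all genes compared. A short gene reaches 100 pairs only if it is dense in pairs, so nothing is read from this for the other 11 genes of the list.

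Of the 12 neuronal genes 10 held 100 pairs, with a median ratio of 1.01 and 3 intervals without 1, 1 above it and 2 below, beside 4.76% of all genes above and 4.13% below. *Adgrb3*, an adhesion receptor of neurons, had 2638 and 1872 pairs (1.01, 0.949 to 1.07), *Kcnq5*, a potassium channel, 2560 and 1912 (1.06, 0.998 to 1.13), and *Kcnb2*, another channel, 1930 and 1384 (1.02, 0.949 to 1.09). *Khdrbs2* (1.08, 1.003 to 1.15), *Dner* (0.927, 0.862 to 0.997) and *Trpm8* (0.860, 0.755 to 0.978) were the genes with intervals off 1 and, like *Col9a1* and *Il1rl1*, were named after their values were seen.

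Of the 10 matrix and fibroblast genes 9 held 100 pairs, with a median ratio of 1.02. *Col19a1* had 1529 and 1102 pairs (1.02, 0.946 to 1.11), *Tns1*, which links the cytoskeleton to adhesion sites, 1293 and 849 (0.932, 0.854 to 1.02), and *Col4a3*, a basement membrane collagen, 751 and 538 (1.02, 0.908 to 1.14). Of the 9 ratios 6 were above 1, beside 168 of 315 over all genes, and the intervals of *Col3a1* and *Col9a1* (1.24, 1.02 to 1.52) lay wholly above it, beside 15 of 315 (4.76%). Contacts give no expression level.

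Of the 16 immune genes 10 held 100 pairs, and 7 of the 10 had a ratio below 1, beside 147 of 315 over all genes compared, with a median of 0.934 against 1.01. *Stat4* had 726 and 561 pairs (1.097, 0.980 to 1.23), *Il1r1*, the interleukin 1 receptor, 397 and 269 (0.962, 0.821 to 1.13), and *Sp100*, a nuclear body protein, 341 and 200 (0.832, 0.695 to 0.994). *Il1rl1*, the interleukin 33 receptor, had 229 and 112 pairs, a ratio of 0.694 (0.549 to 0.874). No member passed 1.5-fold.

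Of the 14 developmental regulators 12 lay in the stretch and 4 held 100 pairs, with a median ratio of 0.957. *Eya1*, a transcription co-factor of ear and kidney, had 588 and 408 pairs (0.985, 0.866 to 1.12), *Pax3*, a factor of neural crest and muscle, 385 and 338 (1.246, 1.07 to 1.45), and *Tfap2d* 216 and 128 (0.841, 0.670 to 1.05). The other 8, among them *Sox17*, *Prdm14* and *Ihh*, held fewer than 100 pairs and were not compared singly.

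The ratio was lower in the shortest genes, whose pairs are limited to shorter distances because both ends had to lie inside. Gene length was not separated from distance. In the 203 genes under 20 kb the pairs summed to 5114 and 3161, a ratio of 0.877 (0.839 to 0.917), and pairs under 1 kb were 35.5% and 28.2% of them. In the 101 genes of 100 kb or more the pairs summed to 111253 and 78973, a ratio of 1.01 (0.998 to 1.02), with 19.6% and 15.4% under 1 kb. At 1 to 20 kb the shortest genes stood at 0.928 (0.880 to 0.980).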

How the data were processed

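Hi-C pairs were measured in 1 library of wild-type and 1 of *Lin28a* knockout mouse ES cells. Per the labels, CASAVA 1.8, Bowtie2 and HiC-Pro were used with mm10. The authors deposited 1 line per valid pair, with positions, strands, fragment numbers, summed distances to the sites (100 to 600 bp) and a mapping quality score for each end (11 to 42 in the deposited lists); no normalization was applied. Filters on pair type or length applied before deposition are not given in the sources used here.

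Both lists ended in an incomplete line (1 each, left out) and were partial. Pairs were counted with Python 3.11.15, numpy 2.4.6, pandas 2.3.3 and scipy 1.17.1, and sites and genes came from GRCm38 and GENCODE M21, with RefSeq as an alternative (497 genes). Depth was 2849642 and 2256233 cis pairs. Shares have exact binomial (Clopper-Pearson) intervals, differences Newcombe intervals, and ratios intervals from the exact split of counts, at 95%. Ratios by distance and fragment were scaled to cis pairs, and those of genes to short pairs. Read names gave 2 lanes per library, and no label ties a lane to a replicate. Both wild-type lanes and the larger knockout lane were on 1 flow cell, and the smaller knockout lane on another instrument.

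The members and gene lists were chosen with earlier results of these data known. Named genes were up to 3 per list with the most short pairs, the 3 highest and 3 lowest gene body ratios, the 3 gene starts with the most and the 3 with the fewest pairs per site, and the 3 highest and lowest bins of 1 Mb, and listed genes whose interval left out 1 were added after their values were seen. A gene that the rule names is not reported here. The CpG split, gene ends and the difference of 2 fragments were chosen after seeing the data. Bins of 1 Mb used pairs under 1 Mb by their left end, and the last bins were left out, which departs from the plan because long pairs leave the held stretch. Counting and ratio steps were tested on simulated pairs. Alternatives were mapping quality of 30 or more, each lane alone, no pairs under 1 kb, the other annotation, and other windows, bins and limits.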

Additional observations from a re-analysis of the deposited data

Results flagged for a closer look

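The knockout list ran on past 90.75 Mb to the end of chromosome 1, where no wild-type list was at hand, and these pairs entered no comparison. They hold 322507 pairs under 20 kb among 2749407 cis pairs, 11.7%, and 33.6% of the short pairs were inward, beside 33.2% in the stretch that was compared. The wild-type list added 583 short pairs past that limit, 33.3% of them inward. With 1 library per group, no group was large enough to look for a sample that stands apart.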

How the results depend on the processing

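Of 63 alternative values, 47 stayed within the counting interval of the main value (counts of genes within 1.5 times), 16 moved and 0 turned the sign of a difference whose interval left out its null value. The gene start difference, whose interval held 0, changed sign to -0.0140 at mapping quality of 30 or more and to -0.0118 in the larger lanes. Leaving out pairs under 1 kb moved the difference in short share to -0.833 points, in inward share to -0.183 (-0.412 to 0.0465) and in the share of 5 to 20 kb to 0.628. Leaving out pairs of 2 fragments' difference, chosen after seeing the data, moved the first 2 to -0.949 and -0.607, and cis pairs under 1 Mb as denominator, also chosen then, gave -2.10. The smaller lanes alone, with 35108 and 11985 short pairs, gave -4.40 for inward, -4.61 for a difference of 2, 4.85 for 5 to 20 kb, 0.7997 (-0.229 to 1.83) for gene bodies, 0.511 (0.0258 to 1.02) for gene starts and -1.35 (-2.33 to -0.370) for gene-free bins. Both ends in 1 gene body gave 0.101. Gene bodies past 1.5-fold numbered 2 in the main setting, 4 in the larger lanes, 1 of 43 in the smaller lanes and 0 with at least 200 pairs. The 47 include values that could not move, those without pairs on neighbouring fragments and the share of such pairs, as there were none, and gene ends (1.003), which are another quantity. A window of 2 kb at gene starts gave 0.0738 (0.00106 to 0.147), and bins of 50 kb gave -0.325 (-0.562 to -0.0877) in gene-free bins. No paired analysis was possible because each group holds 1 library. Depth limits single genes most: *Tmbim1*, with 72 and 34 pairs, had an interval of 0.432 to 1.02.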
